A study of Homo sapiens with 2 samples.

Results

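The region described here is the stretch of 28S rRNA from position 3651 to position 4100, taken as the 3′ part of domain IV and the start of domain V; with no 28S sequence at hand, these names could not be checked against the numbering. Its members are all deposited 28S positions within these borders, 379 of the 5047 positions listed for 18S and 28S rRNA together, and 379 of 3357 for 28S rRNA. The borders were set by position and not by a rule on reads, but with earlier results of these data known. The other 71 of the 450 positions are not listed; listed positions in the region have 5 or more reads in one library or both. The values come from A549, an established human lung carcinoma epithelial cell line, in 2 libraries: cells transfected with poly I:C at 1 µg/mL for 1 h using Lipofectamine 2000, and mock cells given the transfection reagent alone, for a time the labels do not state. Each condition is 1 library, so there is no spread between replicates, no test between conditions and no p-value.

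28S rRNA is the main RNA of the large ribosomal subunit. Domain IV forms much of the face that meets the small subunit, and its helix H69 reaches across to the decoding centre and touches the tRNAs. Domain V holds the peptidyl transferase centre, where peptide bonds are made. Poly I:C is a synthetic double-stranded RNA; in human cells such RNA can switch on oligoadenylate synthetases, whose product activates RNase L, an endoribonuclease that cuts single-stranded RNA and leaves a cyclic phosphate. Several other nucleases and chemical hydrolysis leave the same end. The assay joins cyclic phosphate ends to an adapter with the ligase RtcB, so a read marks an RNA fragment that carried such an end. Neither library was described as lacking a nuclease, so no enzyme was assigned to a position. Neither the fragment end that a position marks nor the start of the numbering is given in the sources used here. Positions are therefore printed as deposited, without helix names or bases, and each stands for all of the near-identical rRNA gene copies.

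Fragments of the region made up a larger part of the poly I:C library. The region held 516945 reads in the poly I:C library and 297644 reads in the mock library. These were 13.7% (95% exact binomial interval 13.7 to 13.8) of all listed 18S and 28S reads after poly I:C and 9.67% (9.63 to 9.70) in mock cells. The ratio of these shares, poly I:C over mock, was 1.42 (95% exact counting interval 1.41 to 1.43). The listed totals behind these shares were 3764202 reads for poly I:C and 3079346 reads for mock. Intervals cover the counting of reads only; no molecular identifier is described, and PCR copies are not separate molecules.

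A single position carried most of the region's reads in both libraries, at levels less than 2-fold apart. Position 4060 had 338799 reads, or 90006 per 1000000 listed 18S and 28S reads (RPM), in the poly I:C library and 239988 reads (77935 RPM) in the mock library. It ranked second by reads among all 5047 listed positions in each library. It made up 65.5% of the region's reads after poly I:C and 80.6% in mock cells, and its ratio was 1.15 (1.15 to 1.16), below the 2-fold size used as the rule here. Under the other scalings the ratio at 4060 rose to 1.43 at most. Without position 4060 the region held 178146 poly I:C reads and 57656 mock reads, a ratio of 2.53 (2.50 to 2.55). The remaining difference lay mainly at 6 positions that were at least 10-fold higher with poly I:C, namely 3763, 3799, 4030, 4031, 4032 and 4093. These 6 together had 104383 poly I:C reads and 608 mock reads, a ratio of 140 (130 to 152), and made up 20.2% of the region's poly I:C reads against 0.204% of its mock reads. With position 4060 and these 6 left out, the other 372 members held 73763 poly I:C reads and 57048 mock reads, a ratio of 1.06 (1.05 to 1.07). That set was chosen after its values were seen.

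**Figure D1:**
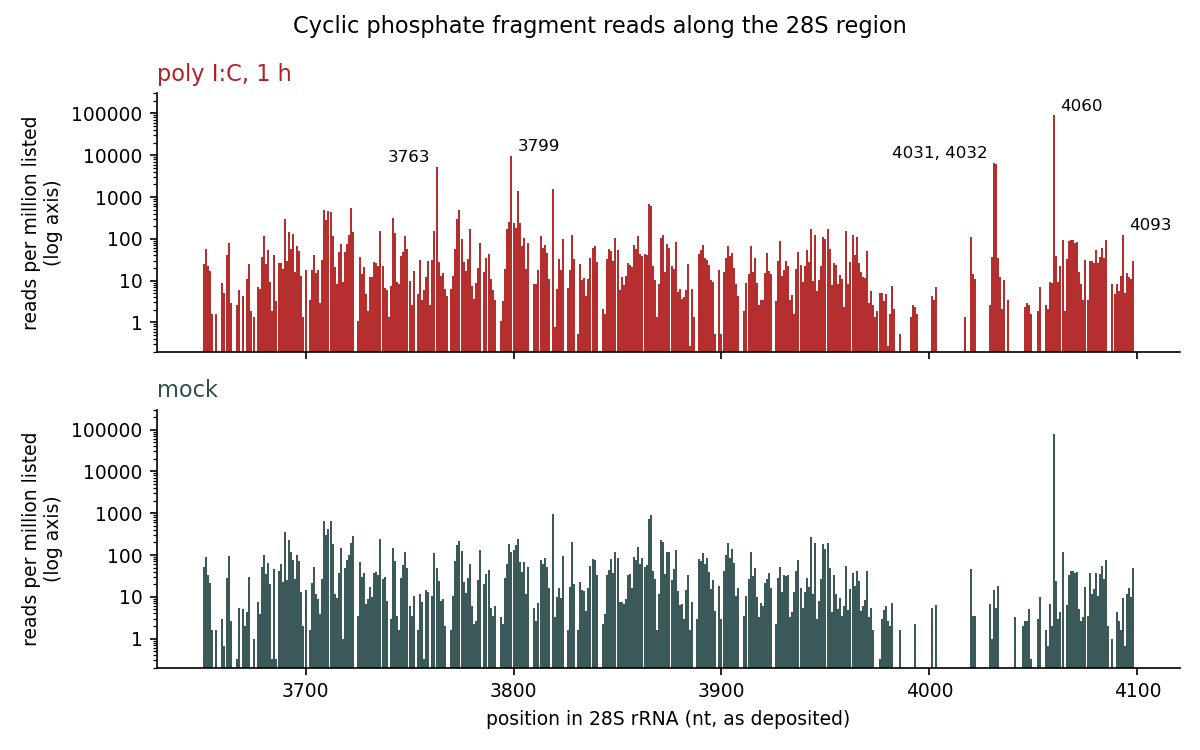
RPM (log axis) at each listed position of the region, in the poly I:C library (top) and the mock library (bottom); lines stand for single positions and positions at 0 or not listed are blank. Position 4060 is the tallest line in both, at 90006 RPM with poly I:C and 77935 RPM in mock, whereas 3763, 3799, 4031 and 4032 stand out with poly I:C only among these 2 libraries.

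The adjacent positions 4031 and 4032 had the highest ratios of the region. Position 4031 had 24974 reads (6635 RPM) with poly I:C and 45 reads (14.6 RPM) in mock, a ratio of 454 (339 to 623). Position 4032 had 22631 reads (6012 RPM) with poly I:C and 17 reads (5.52 RPM) in mock, a ratio of 1089 (680 to 1870). Among the 2750 positions of both rRNAs with at least 100 reads over the libraries, hereafter the compared positions, these were the seventh and the third highest ratios. The next position upstream, 4030, had 140 poly I:C reads and 3 mock reads. Its ratio of 38.2 has a wide counting interval, 12.8 to 187, because of the 3 mock reads. As a pair, 4031 and 4032 held 1.26% of the listed reads of the poly I:C library and 0.00201% of those of the mock library.

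The elevation at 4031 and 4032 was narrow. In the poly I:C library 4032 held 90.6% as many reads as 4031, position 4030 held 0.561% as many and position 4033 held 0.517% as many. Position 4033, directly downstream of the 2 peaks, had 129 poly I:C reads and 56 mock reads, a ratio of 1.88 (1.37 to 2.63). It was below the 2-fold rule under the main scaling but past it unscaled. The listed positions within 5 nt of 4031, without 4030 and 4032, summed to 231 poly I:C reads and 77 mock reads, a ratio of 2.45 (1.89 to 3.22). In the mock library the most frequent position within 5 nt was 4033 and not 4031 or 4032. On the downstream side, positions 4034 and 4036 had 45 and 39 poly I:C reads and 0 mock reads each. Against a floor of 3 reads in the mock library the ratio was at least 12.3-fold at 4034 and at least 10.6-fold at 4036. The exact lower 95% counting limits, taken with 0 mock reads and no floor, were smaller, 9.58 at 4034 and 8.25 at 4036; both positions fall below the minimum of 100 reads and were named after their values were seen.

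These peaks lie in a stretch that was otherwise almost empty of cyclic phosphate ends. The window from 4001 to 4050 had 28 unlisted positions of 50, the most of the 9 windows of 50 nt, including the longest unlisted run of the region, 13 nt from 4004 to 4016. Its sums were 48593 poly I:C reads and 392 mock reads, a ratio of 101 (91.8 to 112). Without 4030, 4031 and 4032 this window still had 848 poly I:C reads and 327 mock reads, a ratio of 2.12 (1.87 to 2.42). Position 4020, the most frequent mock position of the window, had 413 poly I:C reads and 142 mock reads, a ratio of 2.38 (1.96 to 2.90).

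Position 4060, 28 nt downstream of 4032, had the narrowest profile of the 15 positions named by rule. The listed positions within 5 nt of it summed to 0.209% of its own reads in the poly I:C library and 0.201% in the mock library. The larger of its direct neighbours, 4061, held 147 poly I:C reads and 73 mock reads. Both libraries thus held nearly all reads of this stretch at 1 position. All listed positions within 5 nt of 4060 together had 708 poly I:C reads and 483 mock reads, a ratio of 1.20 (1.07 to 1.35). They were also split after 4063, which was not planned. The listed positions from 4055 to 4063 other than 4060 had 351 poly I:C reads and 129 mock reads, a ratio of 2.23 (1.81 to 2.75). In contrast, 4064 and 4065 together had 357 poly I:C reads and 354 mock reads, a ratio of 0.825 (0.710 to 0.958).

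Further upstream the poly I:C library had 2 peaks that lay 36 nt apart. Position 3763 had 20115 reads (5344 RPM) with poly I:C and 153 reads (49.7 RPM) in mock, a ratio of 108 (91.7 to 127). Position 3799 had 36053 reads (9578 RPM) with poly I:C and 361 reads (117 RPM) in mock, a ratio of 81.7 (73.7 to 90.9). After 4060, position 3799 was the most frequent member with poly I:C, and it ranked sixteenth among all listed positions there, against rank 757 in the mock library. Neither position was a local maximum in mock cells: position 3762 had 339 mock reads against the 153 of 3763, and position 3802 had 738 mock reads against the 361 of 3799.

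The flanks of these 2 peaks differed from each other. Around 3763 the listed positions within 5 nt summed to 5.55% of the peak with poly I:C, and their own ratio was 1.56 (1.41 to 1.72). Position 3762 had 582 poly I:C reads and 339 mock reads, a ratio of 1.40 (1.23 to 1.61), so the 108-fold position lay directly beside one below the 2-fold rule. Around 3799 the neighbours summed to 26.7% of the peak, and their ratio was 2.76 (2.65 to 2.88). Most of that came from position 3802, which had 5164 reads with poly I:C and 738 in mock, a ratio of 5.72 (5.30 to 6.19). Position 3803 had 888 poly I:C reads and 205 mock reads, a ratio of 3.54 (3.04 to 4.15), whereas 3801, between 3799 and 3802, had 696 poly I:C reads and 541 mock reads, a ratio of 1.05 (0.939 to 1.18). The higher reads around 3799 were therefore not a smooth slope from the peak.

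**Figure D2:**
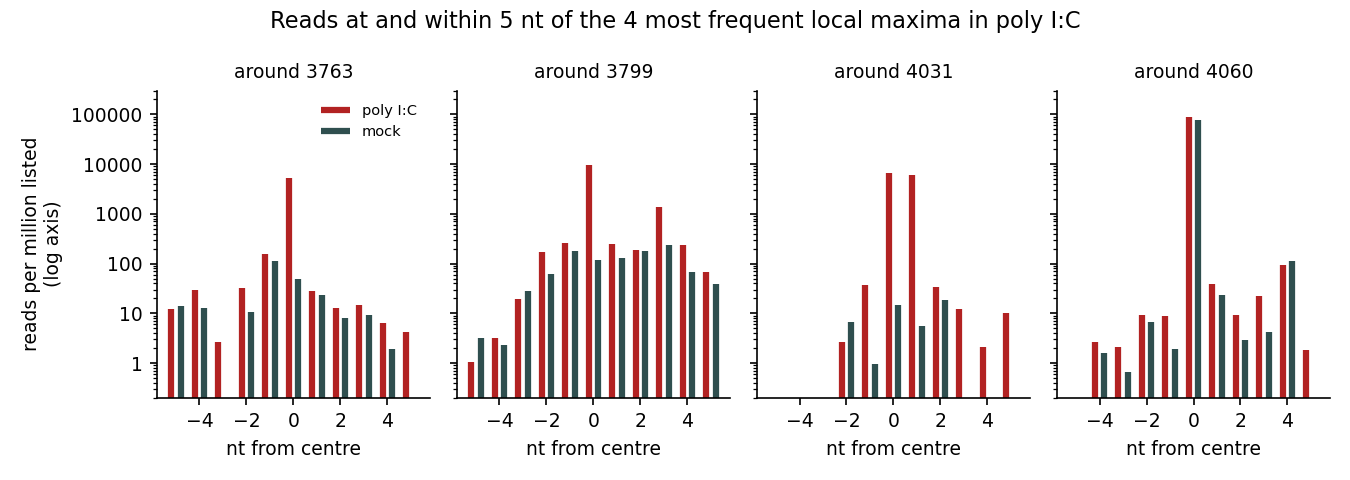
RPM (log axis) at 4 local maxima of the poly I:C library and at the positions within 5 nt on either side, with poly I:C in the left bar and mock in the right bar of each pair; blanks are positions at 0 or not listed. At 3763, 3799 and 4031 the centre stands out with poly I:C and not in mock, 4032 beside 4031 is nearly as tall with poly I:C, and 4060 stands out in both libraries.

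The sixth position past 10-fold, 4093, was much less frequent. It had 470 poly I:C reads and 29 mock reads, a ratio of 13.3 (9.11 to 20.0), and lay 33 nt downstream of 4060. Its sides differed: 4088 to 4092 had 149 poly I:C reads and 29 mock reads, a ratio of 4.20 (2.81 to 6.49), while 4094 to 4098 had 272 poly I:C reads and 267 mock reads, a ratio of 0.833 (0.701 to 0.990). The authors' deposited table, which does not scale for library size, gives for 5 of these 6 positions folds of 131 for 3763, 99.7 for 3799, 40.1 for 4030, 1293 for 4032 and 15.9 for 4093.

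By the rule of size, 31 of the 206 compared members of the region were at least 2-fold higher with poly I:C, or 15.0%, beside 8.18% of all 2750 compared positions. At least 2-fold lower were 21 members, or 10.2%, beside 10.1% of all compared positions, so the share of lower members was that of the rRNAs as a whole. At least 10-fold higher were 6 members, or 2.91%, beside 2.84% of all compared positions, again the background share, and 0 members were at least 10-fold lower. Positions are not replicates, and the differences between these shares were not tested. Of the 31 higher members 11 met the minimum of 100 reads through their poly I:C reads alone, 4030, 4031, 4032 and 4093 among them, and 18 had at least 100 reads in each library. Of the 21 lower members 7 met it through their mock reads alone and 10 had at least 100 reads in each library. By size, 23 higher members lay between 2-fold and 4-fold and 2 between 4-fold and 10-fold. The counting interval lay wholly beyond 2-fold at 18 higher and 6 lower members.

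The typical member was slightly lower with poly I:C under the main scaling only. The median log2 ratio of the 206 compared members was -0.21, with quartiles of -0.61 and 0.58, and 88 members were above a ratio of 1 and 118 below it. The median over all compared positions was -0.31. Scaling by the median ratio over all compared positions instead moved every log2 ratio up by 0.31. The median of the region then was 0.10, so its sign depends on the scaling. The main scaling factor was 0.818, and the alternatives were 0.954 (28S), 1.01 (median) and 1.00 (unscaled). Each alternative thus raises every ratio, so the 31 higher calls could not be lost under them. Of the 21 lower members, 9 kept that call under all 4 scalings.

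**Figure D3:**
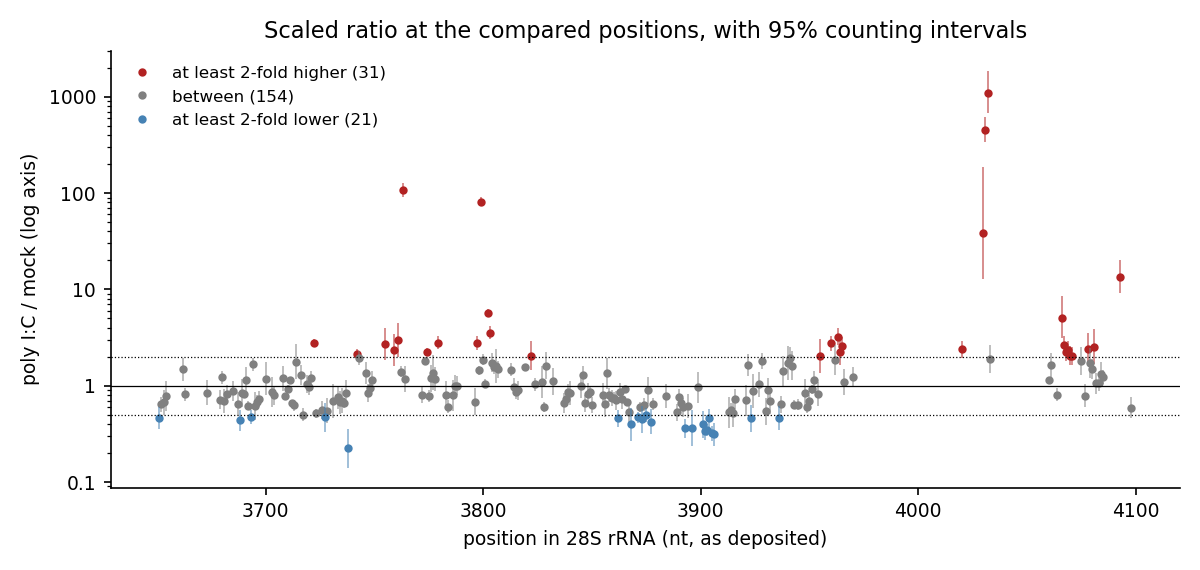
Ratio of scaled reads, poly I:C over mock (log axis), at the 206 compared positions of the region, with vertical lines for 95% counting intervals, dotted lines at 2 and 0.5 and a solid line at 1. The 31 higher members include the pair 4031 and 4032 at 454 and 1089, and the 21 lower members reach down to 0.227 at 3738.

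Some of the higher and lower members lay close together along the region, while others stood alone. With called members at most 5 nt apart joined, a rule added after the data were seen, the 31 higher members fell into 12 segments and the 21 lower members into 9. A single position made up 5 of the 12 higher segments and 6 of the 9 lower ones. Log2 ratios of directly neighbouring compared positions had a Pearson's r of 0.562 and a Spearman's rho of 0.575 over 147 pairs in the region. Over 1028 pairs in the rest of 28S rRNA r was 0.668 and rho was 0.563. These describe positions of the same 2 libraries, which are not independent of each other.

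Lower members gathered in the middle of the region. From 3851 to 3950, 16 of 61 compared members were lower by the 2-fold rule, 0 were higher, and 53 were below a ratio of 1. Those shares are 26.2% lower and 86.9% below 1, beside 10.1% and 67.4% of all 2750 compared positions; the stretch was picked after its values were seen, and the difference was not tested. Under all 4 scalings 8 of the 16 were still lower by the 2-fold rule and 46 of the 53 still below 1. The 100-nt stretch summed to 15659 poly I:C reads and 19004 mock reads, a ratio of 0.674 (0.660 to 0.689), which ran up to 0.836 under other scalings. The strongest part was the segment from 3893 to 3906, whose borders were drawn from the calls themselves. Of its 10 compared members 8 were at least 2-fold lower, a share that such borders favour. The segment had 1184 poly I:C reads and 2498 mock reads, a ratio of 0.388 (0.362 to 0.416) that reached 0.481 at most under the other scalings.

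Within that segment position 3906 had 75 poly I:C reads and 194 mock reads, a ratio of 0.316 (0.239 to 0.415). Position 3905 had 173 poly I:C reads and 438 mock reads, a ratio of 0.323 (0.269 to 0.386), and position 3902 had 129 poly I:C reads and 310 mock reads, a ratio of 0.340 (0.275 to 0.419). The most frequent position of the segment, 3903, was named after its values were seen. It had 247 poly I:C reads and 582 mock reads, a ratio of 0.347 (0.298 to 0.404). All 4 were still at least 2-fold lower under each scaling. The lowest ratio of the region lay elsewhere, at position 3738, with 25 poly I:C reads and 90 mock reads, a ratio of 0.227 (0.140 to 0.357). The 5 positions upstream of it, 3733 to 3737, had 963 poly I:C reads and 1153 mock reads, a ratio of 0.683 (0.627 to 0.745). The 5 downstream, 3739 to 3743, had 1790 poly I:C reads and 714 mock reads, a ratio of 2.05 (1.88 to 2.24), of which 3742 and 3743 held 1735 and 681. Position 3738 thus lay between a lower side and a higher one.

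Members with modestly higher ratios also formed segments by the 5-nt joining rule. Each segment starts and ends at a called member, so its share of higher members and its summed ratio are high by construction. All 6 compared members from 4066 to 4071 were at least 2-fold higher, with ratios from 2.05 to 5.03, and the segment summed to 1766 poly I:C reads and 617 mock reads, a ratio of 2.34 (2.14 to 2.57). It begins 6 nt downstream of 4060, whose own ratio was 1.15. From 3955 to 3965, 5 of 6 compared members were at least 2-fold higher, with position 3963 at 456 poly I:C reads and 115 mock reads, a ratio of 3.24 (2.64 to 4.02). The segment summed to a ratio of 2.48 (2.26 to 2.71). In the last 150 nt of the region, from 3951 to 4100, 18 of 37 compared members were higher by the 2-fold rule, or 48.6%, and 0 were lower. From 3801 to 3950, 3 of 89 were higher (3.37%) and 16 lower, and from 3651 to 3800, 10 of 80 were higher (12.5%) and 5 lower. Over all compared positions 8.18% were higher and 10.1% lower. The other scalings raise every ratio, so the higher counts of these stretches could not fall under them. Under all 4, the lower ones came to 8 of 16 from 3801 to 3950 and to 1 of 5, position 3738, from 3651 to 3800.

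Summed over 50 nt, 2 of the 9 windows passed the 2-fold rule upward and 0 passed it downward. Besides 4001 to 4050, the other was 3751 to 3800, with 65628 poly I:C reads and 5542 mock reads, a ratio of 9.69 (9.43 to 9.96). Position 3799 alone held 54.9% of that window's poly I:C reads, and without 3763 and 3799 the window stood at 1.54 (1.49 to 1.59). The window from 4051 to 4100 stood at 1.16 (1.15 to 1.17), or at 1.53 (1.46 to 1.61) without 4060 and 4093. The windows at 3801 to 3850 and 3951 to 4000 had ratios of 1.60 (1.56 to 1.64) and 1.56 (1.48 to 1.65). Their compared members had unlike median ratios, 1.04 from 3801 to 3850 and 1.83 from 3951 to 4000. Position 3819 alone held 31.7% of the poly I:C reads from 3801 to 3850. The remaining windows, in order along the molecule, were 3651 to 3700 at 0.807, 3701 to 3750 at 0.964, 3851 to 3900 at 0.692 and 3901 to 3950 at 0.643. Under the other scalings 3651 to 3700 reached 1.00 and 3701 to 3750 reached 1.20, whereas 3851 to 3900 and 3901 to 3950 reached at most 0.858 and 0.797.

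**Figure D4:**
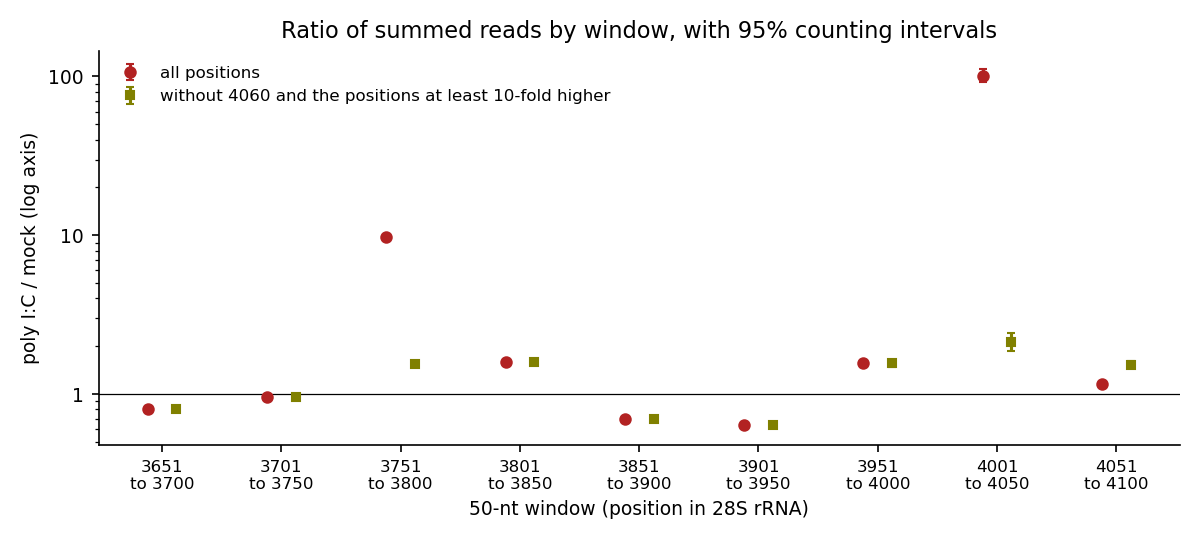
Ratio of summed scaled reads, poly I:C over mock (log axis), in 9 consecutive 50-nt windows of the region, with 95% counting intervals, for all positions (circles) and without 4060 and the 6 positions at least 10-fold higher (squares). The windows at 3751 to 3800 and 4001 to 4050 stand at 9.69 and 101 with all positions and at 1.54 and 2.12 without those, and the windows at 3851 to 3900 and 3901 to 3950 lie below 1 both ways.

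The 4 most frequent mock positions after 4060 had ratios between 0.5 and 2. Position 3819 had 5792 poly I:C reads and 2993 mock reads, a ratio of 1.58 (1.51 to 1.66). Position 3865 had 2497 poly I:C reads and 2225 mock reads, a ratio of 0.918 (0.867 to 0.972). Its neighbour 3866 had 2300 poly I:C reads and 2780 mock reads, a ratio of 0.677 (0.640 to 0.716), so the larger of the 2 was 3865 with poly I:C and 3866 in mock; the ratio at 3865 turned to 1.14 under the median scaling. Position 3712 had 1637 poly I:C reads and 2023 mock reads, a ratio of 0.662 (0.620 to 0.707).

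Apart from 4060, the reads were spread over fewer positions with poly I:C. Without it, the 5 most frequent members held 61.5% of the region's poly I:C reads and 20.8% of its mock reads. Reaching 50% of these reads took 4 members with poly I:C and 31 in mock. Across the 379 members, log2 of RPM plus 1 had a Pearson's r of 0.838 and a Spearman's rho of 0.894 between poly I:C and mock. Without the 6 members past 10-fold these were 0.904 and 0.916 over 373 members.

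The stretches on either side were set beside the region. The 450 nt upstream held 0.623% of the listed poly I:C reads and 0.613% of the listed mock reads, with 33 compared positions and a ratio of summed reads of 1.02 (0.997 to 1.04). There 13 compared positions (39.4%) were at least 2-fold higher, 11 of them at least 10-fold (33.3%), and 0 at least 2-fold lower. Both higher shares were above the 15.0% and 2.91% of the region. The 450 nt downstream held 7.67% of the listed poly I:C reads and 8.99% of the listed mock reads, more than the 4.73% and 1.87% of the region without position 4060. It had 220 compared positions and a ratio of summed reads of 0.853 (0.849 to 0.857). Of these positions 12 (5.45%) were at least 2-fold higher, 1 of them at least 10-fold (0.455%), and 28 (12.7%) at least 2-fold lower. In the rest of 28S rRNA, 125 of 1454 compared positions (8.60%) were higher and 188 (12.9%) lower by the same rule, with a ratio of summed reads of 0.776 (0.775 to 0.778). At least 10-fold higher there were 54 positions (3.71%). 18S rRNA held 34.3% of the listed poly I:C reads and 23.5% of the listed mock reads. Its ratio of summed reads was 1.46 (1.46 to 1.47), close to the region's 1.42. Of its 1090 compared positions 69 (6.33%) were at least 2-fold higher, 18 of them at least 10-fold (1.65%), and 68 (6.24%) at least 2-fold lower. With 1 library per condition none of these differences could be tested, and none is claimed as particular to the region.

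The 173 members under 100 reads were not compared singly. Together they held 4049 poly I:C reads and 2643 mock reads, a ratio of 1.25 (1.19 to 1.32). Of these, 19 had 0 mock reads, with between 5 and 45 poly I:C reads each, and 5 had 0 poly I:C reads, with between 6 and 10 mock reads each.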

How the data were processed

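Cyclic phosphate-bearing RNA of A549 cells was sequenced in 2 libraries, poly I:C for 1 h and mock. Per the file headers, the authors deposited counts, which are reads per position of 18S and 28S rRNA in each library, unscaled and unpooled. The deposited fold is a ratio of poly I:C reads plus 0.5 over mock reads plus 0.5, as recomputed here from the counts. The submitters' processing notes name hg19; no source used here gives the aligner, the counter or the rRNA sequences. Another 230163 lines of the table hold no position.

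Each library was scaled to 1000000 listed 18S and 28S reads (RPM), and poly I:C RPM was divided by mock RPM for each position, 50-nt window and segment. Ratios carry 95% Clopper-Pearson intervals, conditional on the reads of both libraries together; shares carry exact binomial intervals. A library at 0 reads was set to a floor of 3 reads. Compared positions hold 100 or more reads in sum; a ratio of 2 or more is higher, and 0.5 or less is lower. Named positions are all members at least 10-fold higher, the 4 lowest ratios and the 5 most frequent of each library; others were named after their values were seen. The region, these rules and the alternatives were chosen with earlier results of these data known. The calculation was tested on simulated data. Alternatives were other scalings, a pseudocount of 0.5 reads, read minimums, thresholds, windows, borders and left-out positions. Python 3.11.15, numpy 2.4.6, pandas 2.3.3 and scipy 1.17.1 were used. No rRNA sequence was used.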

Additional observations from a re-analysis of the deposited data

How the results depend on the processing

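The region's ratio of 1.42 became 1.66 when scaled to 28S reads, 1.76 by the median ratio and 1.74 unscaled. It became 2.53 without position 4060 and, in alternatives chosen after seeing the data, 1.14 without the 6 members at least 10-fold higher and 1.06 without these and 4060. The median log2 ratio of -0.21 became 0.01, 0.10 and 0.08 under those 3 scalings, 0.01 with no read minimum, -0.03 at 20 reads, -0.02 at 1000 reads and -0.22 without 25 nt at each end. The 31 higher members became 43 (28S), 47 (median) and 46 (unscaled), 63 at 20 reads, 9 at 1000 reads, 77 with no minimum, 8 at a 4-fold threshold, 18 with the interval wholly beyond 2-fold and 55 when each position was summed with its neighbours. The 21 lower members became 10, 9 and 9 under the scalings, 31 at 20 reads, 1 at 1000 reads, 46 with no minimum, 1 at 4-fold, 6 by the interval and 16 when summed. Under those 3 scalings, higher members were 20.9%, 22.8% and 22.3% of the region's 206 compared members. Over all 2750 compared positions the higher shares were 10.3%, 11.6% and 11.2%. Lower members were 4.85%, 4.37% and 4.37% in the region, beside 5.02%, 3.27% and 3.78% of all compared positions. For the other settings no share over all compared positions is set beside the counts. Higher members made up 59.6% of the region's calls under the main scaling, 81.1% scaled to 28S, 83.9% by the median and 83.6% unscaled. Over all compared positions the same shares were 44.8%, 67.2%, 77.9% and 74.7%, so they rose there as well. The 2 higher windows became 4 with 25-nt windows and 1 without the 6 members at least 10-fold higher, with or without 4060. Over the 15 named positions, 37 of 60 alternative ratios stayed inside the counting interval, 0 calls past 2-fold were lost, and the direction turned 3 times, each at position 3865. The 4 alternatives per position were the 3 scalings and a pseudocount of 0.5 reads. The pseudocount left every ratio inside its interval, so all 23 ratios outside came from the scalings. Intervals are wider where reads are few, so staying inside one is no measure of stability. The shifts under scaling follow from its constant factor, and the cause was not tested otherwise. That factor is larger in each alternative, so scaling could add higher calls and remove lower ones but not the reverse. A lone library per condition left no replicate to leave out. No paired analysis was possible because poly I:C and mock are 1 library each. Depth limits the positions with few mock reads, such as 4030 with 3.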

Other observations

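Some members below the minimum of 100 reads had large ratios on very few mock reads; they were chosen after their values were seen. Position 3757, 6 nt upstream of 3763, had 23 poly I:C reads and 1 mock read, a ratio of 18.8 (95% counting interval 3.06 to 775). Position 3976 had 19 poly I:C reads and 1 mock read, a ratio of 15.5 (2.47 to 646), and position 3718 had 35 poly I:C reads and 3 mock reads, a ratio of 9.54 (3.01 to 48.5). Directly upstream of 4093, position 4092 had 48 poly I:C reads and 5 mock reads, a ratio of 7.85 (3.14 to 25.3). In the other direction, position 3935 had 6 poly I:C reads and 39 mock reads, a ratio of 0.126 (0.0435 to 0.299), and position 3897, inside the lower segment from 3893 to 3906, had 2 poly I:C reads and 14 mock reads, a ratio of 0.117 (0.0129 to 0.509).

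Position 4064, 4 nt downstream of 4060, was the most frequent neighbour of that peak in both libraries, with 350 poly I:C reads and 354 mock reads, a ratio of 0.809 (0.696 to 0.940). It lay 2 nt before the run of 6 higher members that starts at 4066.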
